A study of Mus musculus with 15 samples.

Results

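The comparison is of RNA from gonocytes, the foetal male germ cells, of Tex15-/- mice with that of Tex15+/- controls, read across all genes by function, biotype and library. It rests on 6 of the 15 samples of the series, which are the 3 Tex15-/- and 3 Tex15+/- RNA-seq libraries of gonocytes taken at E16.5, late in gestation. Of the 54838 genes in the count tables, 16311 had enough counts to be tested. The cells were sorted by FACS as tdTomato-positive from foetal testes, and both genotypes carried the Miwi2 tdTom allele in heterozygous form, so the controls lacked 1 functional copy of Tex15 and both groups expressed the reporter from 1 copy of the Miwi2 locus. The Tex15 null allele was made with CRISPR/Cas9, as an insertion in an early coding exon that brings in stop codons, and the strain background was mixed. The labels name the tissue as gonocytes, while their protocol speaks of sorted spermatogonia. Neither says how many animals went into a library or whether the libraries of a genotype came from separate animals, so p-values measure only the spread between these libraries, which may be technical.

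At this stage of foetal life, gonocytes have left mitosis and re-establish DNA methylation across a genome that had been stripped of it. The nuclear PIWI protein MIWI2, bound to piRNAs, directs this methylation to young retrotransposons, and TEX15 is a large nuclear protein of male germ cells, without which male mice are sterile. The genes used here to describe the cells fall into those of the germ line, those of the somatic cells that surround gonocytes in the foetal testis (Sertoli, Leydig, interstitial, peritubular myoid, endothelial and blood cells) and those that nearly every cell uses.

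The libraries held between 4893265 and 5697020 counts on genes, and values are given below as CPM (a gene's counts relative to the library total, scaled with TMM factors), for libraries 1, 2 and 3 of each genotype in that order. Of the 31 gonocyte identity genes, 17 were over 10 CPM in every library and 13 under it in every library. Ddx4, the germ cell RNA helicase, was at 742, 682 and 755 CPM in the controls against 667, 687 and 740.2 CPM in the Tex15-/- libraries, and Dnmt3l, the cofactor of de novo methylation, at 279, 237 and 262 CPM in controls and 244, 321 and 292 CPM in Tex15-/- gonocytes. Piwil4, the gene of MIWI2, was at 196, 179.9 and 178 CPM in the control libraries and 179, 168 and 172 CPM in the Tex15-/- libraries. Nanos2, which marks male germ cells after they commit to the male fate, was among the low ones, with 1.11, 0.602 and 1.47 CPM in the controls against 1.403, 0.363 and 2.09 CPM in the Tex15-/- libraries. The summed level of the 31 gonocyte identity genes was 4092, 3903 and 4039 CPM in the control libraries and 3839, 3902 and 4050.0 CPM in the Tex15-/- libraries, and no library stood apart.

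Somatic markers set Tex15-/- libraries 2 and 3 apart. Summed over the 106 markers of 9 somatic lists, the level was 1856, 1780.0 and 1727 CPM in the control libraries and 1910.0, 7199 and 3171 CPM in the Tex15-/- libraries, so that Tex15-/- library 1 lay close to the controls and libraries 2 and 3 above them. The sum of the Leydig cell markers was 64.3, 114 and 79.5 CPM in the control libraries and 90.6, 759.5 and 264 CPM in the Tex15-/- libraries, and that of the Sertoli cell markers 23.2, 31.9 and 21.4 CPM in the control libraries and 20.8, 152 and 119.7 CPM in the Tex15-/- libraries. Amh, the Sertoli cell hormone, was at 0.184, 0.201 and 0.916 CPM in controls and 1.804, 28.5 and 23.2 CPM in Tex15-/- gonocytes, and Cyp17a1, a steroid enzyme of Leydig cells, at 2.397, 16.2 and 6.41 CPM in the control libraries and 11.2, 243 and 80.1 CPM in the Tex15-/- libraries. Insl3, a Leydig cell hormone, and Hba-a1, a globin gene, had no count in the controls or in Tex15-/- library 1, and Insl3 reached 5.27 and 0.381 CPM in libraries 2 and 3. The erythroid sum was 22.7, 29.1 and 28.4 CPM in the control libraries and 21.04, 26.9 and 35.6 CPM in the Tex15-/- libraries, and the globin gene Hba-a2 was at 1.11, 1.003 and 0.916 CPM in the controls against 0, 3.09 and 4.38 CPM in the Tex15-/- libraries. The sum of the mesonephric markers was 24.3, 26.9 and 26.6 CPM in the control libraries and 25.6, 29.1 and 26.1 CPM in the Tex15-/- libraries. The same 2 libraries had fewer counts outside genes: the number of read pairs in no annotated gene was 0.577, 0.701 and 0.662 per gene count in the controls and 0.712, 0.287 and 0.432 in the Tex15-/- libraries. The part of either difference in the results was not tested. Some fits below take the somatic marker level as a covariate. That level stood out only in Tex15-/- libraries 2 and 3, so such fits cannot tell its part from that of genotype. In sorted bulk RNA fewer cells of a type and less RNA per cell cannot be told apart. Replicates all differed beyond sampling noise, with a chi-square of counts, divided by its degrees of freedom, of 3.17 to 6.41 between controls, 6.29 between Tex15-/- libraries 1 and 3, and 15.9 and 19.8 between library 2 and the other Tex15-/- libraries.

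In the whole comparison, 3 genes passed the test at an adjusted p under 0.05 in edgeR, 1 higher and 2 lower in Tex15-/- gonocytes, which is 0.0184% of the 16311 genes tested. Called, below, means called by this test unless another fit is named. At an unadjusted p under 0.05 there were 1501 genes, 987 higher (6.05%) and 514 lower (3.15%). Tex15 itself (chr8:33516738-33585582, plus strand, GRCm38), the targeted gene, was at 1509, 1667 and 1664 CPM in controls and 469, 230.2 and 249 CPM in Tex15-/- gonocytes. Every Tex15-/- library was below every control, with libraries 2 and 3 lower than library 1. The log2 fold change was -2.35 (SE 0.229, adjusted p = 0.0112 in edgeR, n = 3 per genotype). The gene count covers the whole transcript, so what remained includes any reads of the mutant transcript. Leaving out a library in turn gave log2 fold changes between -2.74 and -2.17, and the call was lost without control library 1, 2 or 3 and without Tex15-/- library 3, as were those of the other 2 genes below.

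Rspry1, which encodes a protein with RING and SPRY domains, was the only gene called higher by this test. Its level was 22.7, 27.5 and 25.7 CPM in the control libraries and 61.1, 54.1 and 55.2 CPM in the Tex15-/- libraries, with no overlap and with Tex15-/- libraries that lay close together. Its log2 fold change was 1.17 (SE 0.142, adjusted p = 0.0307 in edgeR). The call was lost with the replicate number as a block (adjusted p = 0.135 in edgeR). It was also lost with total counts without TMM factors and with upper quartile factors. The gene lies on the chromosome of Tex15, 61.02 Mb from it.

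Gm10800, a predicted gene annotated as protein coding on chromosome 2, fell. It was at 253, 190.5 and 273 CPM in the controls against 61.3, 28.7 and 21.1 CPM in the Tex15-/- libraries, so the groups were separated by a wide gap and libraries 2 and 3 were again lowest. Its log2 fold change was -2.69 (SE 0.315, adjusted p = 0.0307 in edgeR). Gm10801 and Gm21738, a neighbour on chromosome 2 and a gene on chromosome 14, shared sequence with it and had the same order among the Tex15-/- libraries, with 20.5, 18.6 and 21.1 CPM in controls and 6.21, 2.36 and 2.09 CPM in Tex15-/- gonocytes for Gm10801 and 21.2, 10.03 and 15.2 CPM in the control libraries and 4.61, 1.64 and 1.33 CPM in the Tex15-/- libraries for Gm21738. Neither was called by edgeR with all libraries, with adjusted p = 0.182 for Gm10801 and 0.41 for Gm21738. DESeq2 called both, with adjusted p = 1.55e-06 and 9.35e-05, and 7 of 15 alternatives called Gm10801, whose adjusted p ran from 5.293e-11 to 0.885 over them. A coding exon of each is shown, as read from GRCm38.p6 on the strand of the gene, because the 3 genes cannot be counted apart where their sequence is the same. An exon longer than 300 bases was cut to its first 300. Capitals mark the longest stretch common to the 3 sequences as shown, of 37 bases.
Gm10800, exon 4, chr2:98666741-98667040, minus strand: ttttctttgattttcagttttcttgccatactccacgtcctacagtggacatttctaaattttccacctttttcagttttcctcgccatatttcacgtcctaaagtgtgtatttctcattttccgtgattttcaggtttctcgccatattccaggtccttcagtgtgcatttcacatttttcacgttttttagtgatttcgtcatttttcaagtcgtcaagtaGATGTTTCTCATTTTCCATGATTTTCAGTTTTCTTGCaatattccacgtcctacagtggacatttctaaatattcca
Gm10801, exon 1, chr2:98662237-98662522, plus strand: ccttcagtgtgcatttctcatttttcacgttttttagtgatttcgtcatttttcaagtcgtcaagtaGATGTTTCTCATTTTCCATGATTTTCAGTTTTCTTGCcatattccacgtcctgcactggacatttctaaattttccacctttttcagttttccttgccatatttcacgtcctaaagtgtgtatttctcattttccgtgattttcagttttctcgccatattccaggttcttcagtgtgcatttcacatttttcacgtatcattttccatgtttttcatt
Gm21738, exon 3, chr14:19417133-19417366, minus strand: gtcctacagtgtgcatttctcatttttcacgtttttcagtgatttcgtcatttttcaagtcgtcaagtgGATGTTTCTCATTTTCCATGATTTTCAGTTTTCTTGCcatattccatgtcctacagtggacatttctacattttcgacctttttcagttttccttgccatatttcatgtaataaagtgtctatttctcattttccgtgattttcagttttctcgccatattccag

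Of the 387 different 20-base words in the coding exons of Gm10800, 190 (49.1%) were also in those of Gm10801 and 124 (32.0%) in those of Gm21738. The genomic span of Gm10800 was repetitive. Shifted by 234 bases against itself it was 67.2% identical, against a median of 30.7% over the limited range of shifts tried. In Gm21738 the best of these shifts was 351 bases with 60.3% identity, while none of them stood far above the rest in Gm10801, where the best gave 37.3%. The repeat unit of the mouse major satellite, the tandem DNA next to centromeres, is 234 bases long. The files count a read pair only where it aligned to 1 place, so these values are of reads that could be placed, and how reads were split among these genes and other copies is uncertain.

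Beyond the called genes, all 3 Tex15-/- libraries lay above every control for 1062 genes (6.51% of those tested) and below every control for 1089 (6.68%). The 20 of these genes with the smallest p are shown by library. In some the 3 Tex15-/- libraries had like values, in some library 2 or 3 led, and in a few library 1 was highest or library 2 lowest. DESeq2 called 14 of the 17 that edgeR did not call, against 0.233% of all genes tested. The 17 were chosen by small p in the same counts, so these calls are no support for them.

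**Figure D1:**
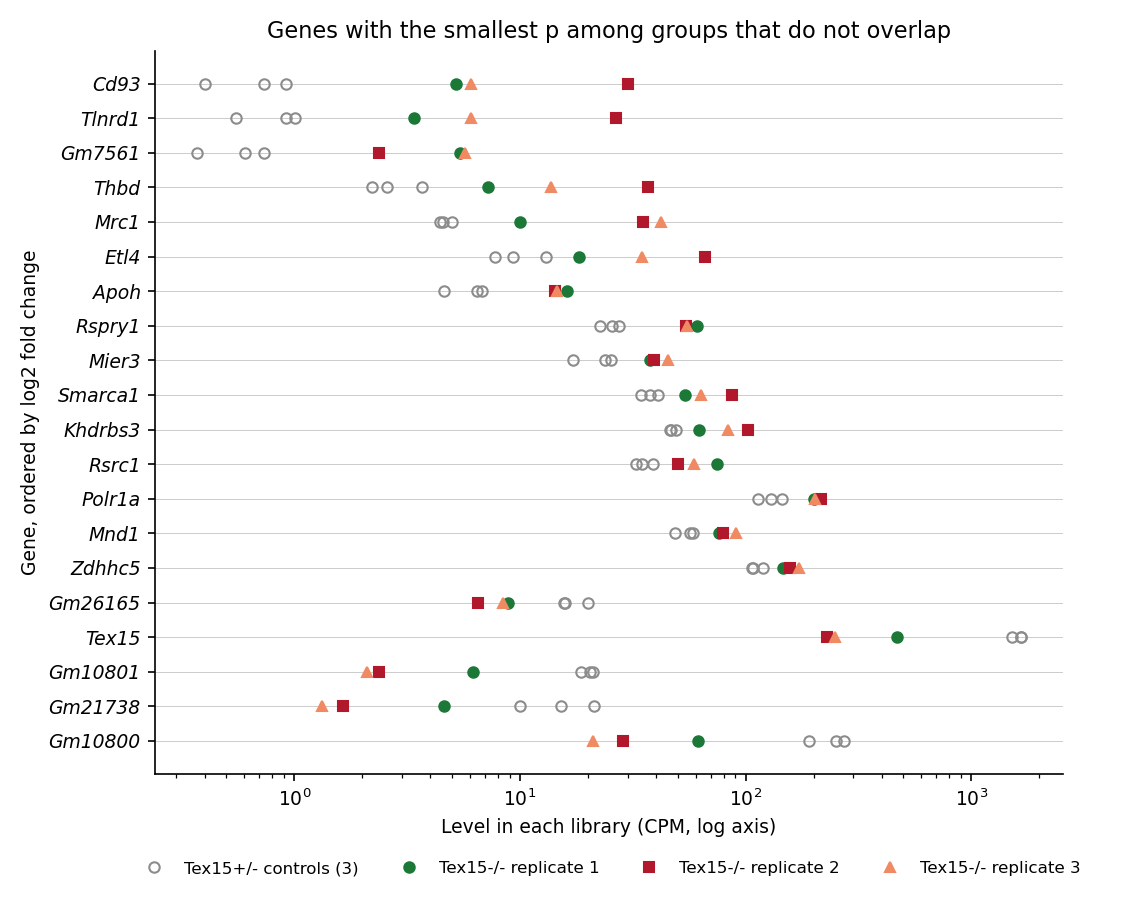
Values in CPM, on a log axis, of the 20 genes with the smallest unadjusted p among those whose groups did not overlap, with open circles for the 3 controls and filled symbols for Tex15-/- libraries 1, 2 and 3. Rspry1, Polr1a and Apoh have Tex15-/- points close together above the controls, while those of Cd93, Thbd and Tlnrd1 spread upward to library 2.

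Among the genes with like values, Polr1a, the largest subunit of RNA polymerase I, was at 145, 114 and 129.6 CPM in the controls against 201, 216 and 203 CPM in the Tex15-/- libraries. Apoh, a plasma apolipoprotein, was at 6.45, 4.61 and 6.78 CPM in controls and 16.2, 14.4 and 14.7 CPM in Tex15-/- gonocytes. Mier3, a protein with ELM2 and SANT domains that binds histone deacetylases, was at 25.4, 17.2 and 23.8 CPM in the control libraries and 37.9, 39.2 and 45.3 CPM in the Tex15-/- libraries. In these 3 genes every Tex15-/- library exceeded every control, and library 1 was the lowest of them by a small margin in Polr1a and Mier3 and the highest in Apoh. Their log2 fold changes were 0.68 (SE 0.109) for Polr1a, 1.34 (SE 0.264) for Apoh and 0.88 (SE 0.182) for Mier3. Zdhhc5, a palmitoyl transferase, had 107, 119.7 and 108 CPM in the controls against 147, 158 and 173 CPM in the Tex15-/- libraries. Mnd1, a partner of DMC1 in meiotic recombination, had 48.7, 56.9 and 58.5 CPM in controls and 76.5, 79.4 and 90.96 CPM in Tex15-/- gonocytes. In both genes, library 3 was the highest and no Tex15-/- library reached down to the controls. In Rsrc1 and Gm7561 the Tex15-/- libraries differed more. Rsrc1, a protein rich in arginine and serine that takes part in splicing, had 32.6, 34.9 and 38.9 CPM in the control libraries and 74.9, 50.1 and 58.99 CPM in the Tex15-/- libraries, and was highest in library 1. Gm7561, on chromosome 8 at 28.96 Mb from Tex15, was nearly absent from the controls, with 0.369, 0.602 and 0.733 CPM in the controls against 5.41, 2.36 and 5.71 CPM in the Tex15-/- libraries, lowest in library 2. It had under 10 counts in every control, so it could be tested only because all 3 Tex15-/- libraries were higher. The gap between its groups is thus no support for a change with genotype. Gm26165, annotated as a snoRNA, lay below the controls, with 15.9, 15.6 and 19.98 CPM in controls and 8.82, 6.54 and 8.37 CPM in Tex15-/- gonocytes.

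In the genes led by library 2 or 3, library 1 lay between the controls and the other Tex15-/- libraries. Mrc1, the mannose receptor of macrophages and some endothelial cells, was at 4.98, 4.41 and 4.58 CPM in the control libraries and 10.02, 35.1 and 42.1 CPM in the Tex15-/- libraries. Cd93 and Thbd, both known from endothelial cells, were at 0.737, 0.401 and 0.916 CPM in the controls against 5.21, 29.98 and 6.09 CPM in the Tex15-/- libraries for Cd93 and 2.58, 2.21 and 3.67 CPM in controls and 7.21, 36.9 and 13.7 CPM in Tex15-/- gonocytes for Thbd. Library 2 was the highest in both of the latter, and library 1 the lowest of the Tex15-/- libraries. Etl4 was at 7.74, 13.03 and 9.35 CPM in the control libraries and 18.2, 66.1 and 34.8 CPM in the Tex15-/- libraries, and Tlnrd1, a talin-like protein, at 0.553, 1.003 and 0.916 CPM in the controls against 3.41, 26.7 and 6.09 CPM in the Tex15-/- libraries. Smarca1, the ATPase of an ISWI remodeller, was at 37.8, 34.3 and 40.9 CPM in controls and 53.9, 87.03 and 63.4 CPM in Tex15-/- gonocytes, and Khdrbs3, an RNA-binding protein, at 46.5, 49.1 and 46 CPM in the control libraries and 61.9, 102 and 83.2 CPM in the Tex15-/- libraries. Libraries 2 and 3 also had the higher sums of somatic markers. With that level as a covariate, log2 fold changes went from 4.27 to 2.43 for Cd93 and from 2.76 to 1.27 for Thbd. Those of Etl4 went from 1.99 to 0.91 and of Tlnrd1 from 3.85 to 1.75. Smarca1 went from 0.86 to 0.48, Khdrbs3 from 0.81 to 0.43 and Mrc1, itself in the sum, from 2.64 to 1.93. That fit cannot tell somatic marker RNA from genotype, so its part was not tested. That library 1 lay above every control in these genes is fixed by how they were chosen. Cd93 and Tlnrd1 also had under 10 counts in every control, so they could be tested only because all 3 Tex15-/- libraries were higher.

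The per-library question was then asked of every gene with a minimum size. A library was counted as outside the controls where it lay more than 0.5 on the log2 scale beyond the highest or lowest control. All 3 Tex15-/- libraries did so on the high side for 69 genes (0.423% of those tested) and on the low side for 85 (0.521%). Far more genes left the control range in library 2, in library 3 or in these 2 alone. Library 2 alone was above for 1206 genes and below for 1557, library 3 alone for 249 and 476, and both without library 1 for 504 and 742. Library 1 alone was above for 193 genes and below for 248.

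**Figure D2:**
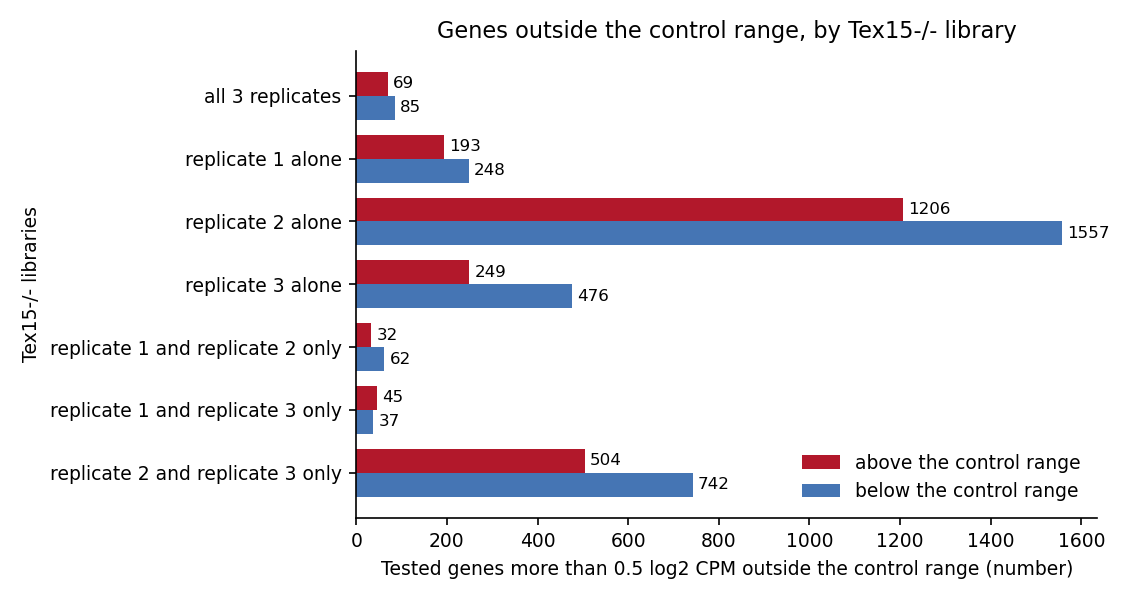
Number of tested genes outside the control range by more than 0.5 log2 CPM, by which Tex15-/- libraries did so, with genes above the range and genes below it as separate bars. The bars for library 2 alone (1206 and 1557 genes) and for libraries 2 and 3 (504 and 742) exceed those for all 3 libraries (69 and 85).

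Somatic markers were frequent among the genes above the controls in libraries 2 and 3. Of the 71 somatic markers tested, 38 (53.5%) were above the controls in libraries 2 and 3 but not in library 1, against 3.09% of all genes, and 18 (25.4%) in library 2 alone, against 7.39%. Libraries 2 and 3 were set apart by these same markers, so the shares restate their higher sums. Markers above the range in all 3 libraries numbered 2 (2.82%), namely Mro and Mrc1, against 0.423% of all genes. Mro had under 10 counts in every control and passed the filter on low counts through the Tex15-/- libraries. Below it in library 1 alone were 6 markers (8.45%), against 1.52% of all genes. On the low side, genes that are not protein coding were frequent. Of the 2269 tested, 437 (19.3%) were below in libraries 2 and 3 and 560 (24.7%) in library 2 alone, against 305 (2.17%) and 996 (7.1%) of the 14033 protein-coding genes.

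**Figure D3:**
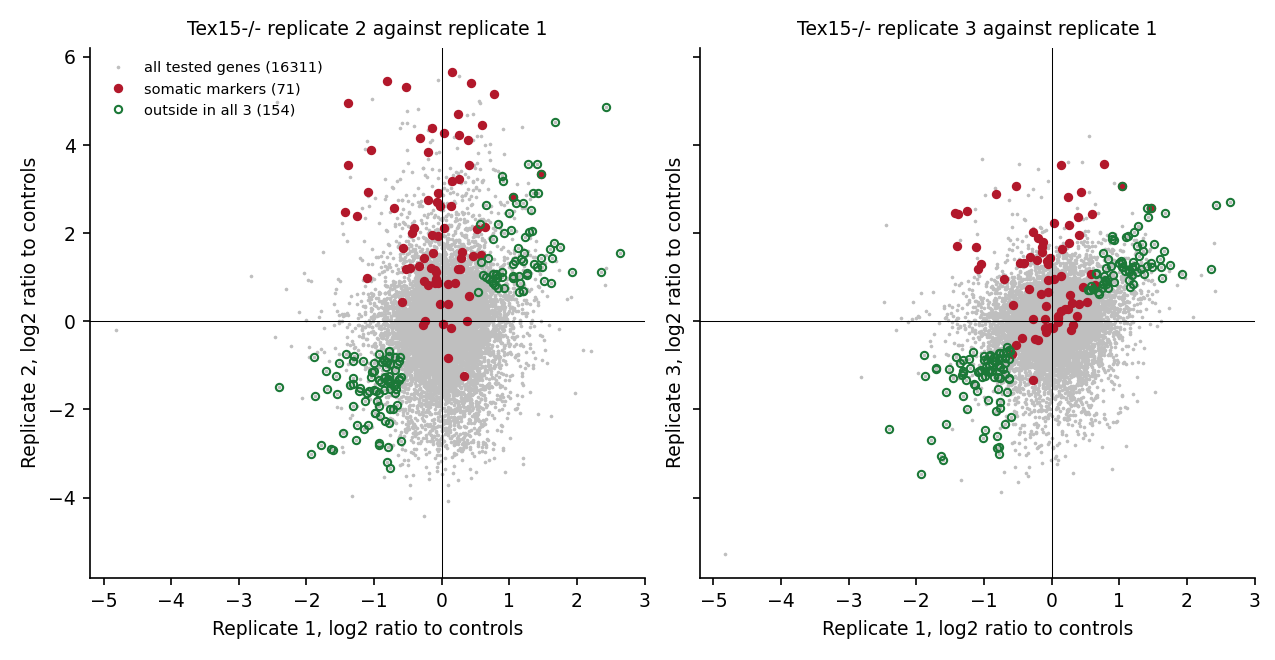
Log2 ratio to the control mean in Tex15-/- library 2 (left panel) and library 3 (right panel) against that in library 1, 1 point per tested gene, with the 71 somatic markers filled and the 154 genes outside the control range in all 3 libraries as open circles. Somatic markers lie between -1.42 and 1.47 in library 1 and reach 5.66 in library 2; the 154 genes have the same sign in the 3 libraries by their definition.

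The number of calls depended on which Tex15-/- libraries entered the fit. Without Tex15-/- library 1, 1284 genes were called, 799 higher and 485 lower, or 7.33% of the genes tested, and 53 of the 86 somatic markers tested were among them (61.6%). With all libraries, 71 markers passed the filter, and this fit keeps the 2 Tex15-/- libraries in which the markers were high. That share is thus no support for a change with genotype. Without library 2, 8 genes (0.0461%) were called, of which 1 (Mrc1) was a somatic marker, and with library 1 alone against the controls 29 (0.151%), of which none was. In that last fit the single library is assumed to vary like the controls. The 3 genes called with all libraries were among the calls in each of these fits. Rsrc1, Polr1a and Gm10801 were among those called without library 2. Pnpt1, a mitochondrial polynucleotide phosphorylase, and Noct, a circadian phosphatase, were among those called with library 1 alone and are named after their values were seen. Pnpt1 was at 74.7, 65.6 and 78.3 CPM in the controls against 136, 73.4 and 96.1 CPM in the Tex15-/- libraries and Noct at 41.3, 33.7 and 34.8 CPM in controls and 76.8, 38.5 and 49.3 CPM in Tex15-/- gonocytes, so that library 1 was highest in both. As both were picked from the fit of library 1 alone, a high library 1 follows from that choice.

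The genes shared by all 3 libraries beyond 0.5 log2 were mostly of low level. Of the 69 above the controls, 62 were under 10 CPM in every control and 29 had at least 10 counts in all 6 libraries. Of the 85 below, 77 were under 10 CPM in every control and 22 had at least 10 counts in all 6. Of all 16311 genes tested, 13064 had at least 10 counts in all 6. Genes of such low level can pass the filter through the genotype where they are higher. Protein-coding genes made up 60 of the 69 and 37 of the 85, against 14033 of all 16311 genes tested. Even here library 2 was often the extreme one: it was the highest of the Tex15-/- libraries for 38 of the 69 and the lowest for 51 of the 85. For 30 and 22 of them, the Tex15-/- libraries lay within 0.5 log2 of each other. Lists described below held 11 of the 154 genes, and 1932 of all 16311 genes tested. The 11 were Mro, Mrc1, H2afx, Hist1h4j, Slc22a3, Slc2a12, Slc38a5, Rhoj, Rnf165 and Trim56 above the controls and Slc10a5 below. H2afx, the histone variant phosphorylated at DNA breaks, was at 8.48, 10.2 and 10.8 CPM in the control libraries and 16.8, 20.9 and 17.9 CPM in the Tex15-/- libraries, with no overlap and little spread. Slc2a12, a glucose transporter, was at 0.922, 1.003 and 0.733 CPM in the controls against 4.41, 2.36 and 2.28 CPM in the Tex15-/- libraries, with library 1 highest. Rnf165, a RING-finger protein of neurons, was at 3.87, 3.01 and 4.398 CPM in controls and 8.82, 10.5 and 6.66 CPM in Tex15-/- gonocytes.

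Function was described with 43 lists, which held 1932 of the tested genes. No tested member of any list was called by edgeR as described above. The count depended on the settings: DESeq2 called 8 members, or 0.414% against 0.233% of all genes (Mrc1, Polr1a, Smarca1, Mro, Dusp6, Hist1h2bm and 2 others). With the replicate number as a block, edgeR called 2 (Cyp17a1 and Hsd3b1), or 0.104% against 0.0368% of all genes. With the somatic marker level as a covariate it called 1 (Polr1a), or 0.0518% against 0.0674%, and with no filter on low counts 131 of 3221 members, or 4.07% against 1.66% of 42446 genes. The median log2 fold change of all genes tested was 0.00, and 33 lists had medians between -0.17 and 0.30. The other 10, beyond 0.5 in size, were the Sertoli, Leydig, interstitial, myoid, matrix, endothelial and macrophage lists, the immediate early genes, the replication-dependent histones and the olfactory receptors. Where members above or below every control are counted below, the shares over all genes were 6.51% and 6.68%. In library 1, the medians of the 43 lists spread from -0.47 to 0.51, against -1.39 to 3.44 in library 2.

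**Figure D4:**
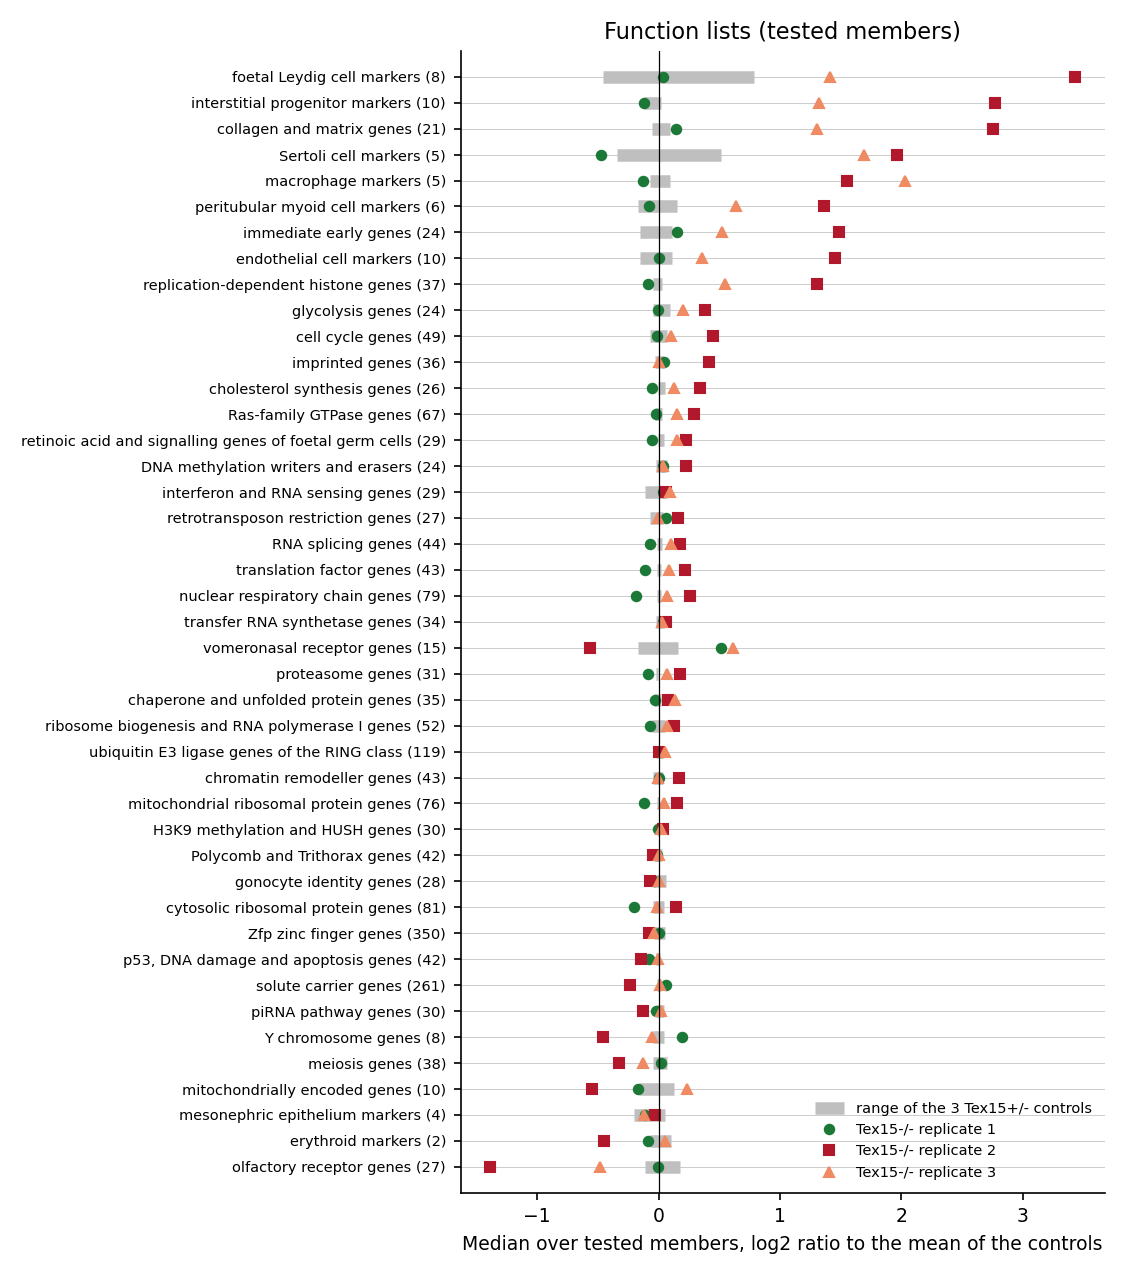
Median log2 ratio to the control mean of each function list, 1 point per Tex15-/- library, with a grey bar for the range of the 3 controls and the number of tested members in brackets. Library 2 reaches 3.44 for the Leydig list and -1.39 for olfactory receptors, while library 1 stays between -0.47 and 0.51 for every list.

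Among steroid-making Leydig cell genes, 8 of 12 were tested, and their medians in Tex15-/- libraries 1, 2 and 3 were 0.03, 3.44 and 1.41 on the log2 ratio scale. Cyp17a1 (values above) had a log2 fold change of 3.76 (SE 0.906, adjusted p = 0.4603 in edgeR). It was 2.48 without library 2, 1.17 with the somatic marker level as a covariate and 0.44 with library 1 alone, and Cyp17a1 was called with the replicate number as a block (adjusted p = 0.0155 in edgeR). Cyp17a1 is itself part of that somatic marker level. Cyp11a1, which makes the first steroid from cholesterol, was at 2.95, 13.4 and 6.598 CPM in the control libraries and 6.61, 131 and 31.97 CPM in the Tex15-/- libraries. Scarb1, the receptor for high-density lipoprotein, was at 24.7, 27.5 and 27.7 CPM in the controls against 27.3, 117 and 52.3 CPM in the Tex15-/- libraries. Libraries 2 and 3 were above every control in these genes, and library 1 within the control range. Sertoli cell genes (5 of 12 tested) had medians of -0.47, 1.97 and 1.69. Sox9, the Sertoli cell transcription factor, was at 3.87, 3.21 and 3.67 CPM in controls and 3.21, 15.1 and 12.4 CPM in Tex15-/- gonocytes. Ptgds, a prostaglandin synthase, was at 3.503, 1.404 and 1.47 CPM in the control libraries and 0.601, 11.8 and 12.9 CPM in the Tex15-/- libraries. Among the tested Sertoli cell genes, only Mro had library 1 above every control too. It was at 0.737, 1.805 and 0.367 CPM in the controls against 3.01, 11.99 and 6.85 CPM in the Tex15-/- libraries. Mro had under 10 counts in every control, so it could be tested only because all 3 Tex15-/- libraries were higher. Amh (values above) and Sox8 did not pass the filter on low counts, and library 1 was above every control in both.

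Interstitial progenitor genes (10 of 13 tested) had medians of -0.12, 2.77 and 1.32. Pdgfra, a growth factor receptor of mesenchyme, was at 12.5, 14.6 and 13.2 CPM in controls and 17.6, 239 and 70.6 CPM in Tex15-/- gonocytes, and Nr2f2 (COUP-TFII) at 1.84, 4.41 and 1.65 CPM in the control libraries and 1.202, 121 and 20.4 CPM in the Tex15-/- libraries. Library 2 was the highest in both. Of the 10 tested, 10 were above the control range in library 2 and 7 in library 3, by the margin set earlier. Nr2f1, Igf1 and Ptch1 were below every control in library 3. The 21 tested genes for collagens and matrix, of 22, had medians of 0.14, 2.76 and 1.30. Col1a2, a chain of collagen I, was at 5.899, 7.82 and 7.51 CPM in the controls against 7.82, 374 and 86.4 CPM in the Tex15-/- libraries, and Col4a1, of basement membrane, at 44.4, 20.9 and 26.9 CPM in controls and 44.3, 645 and 161 CPM in Tex15-/- gonocytes. Library 1 was at the upper end of the controls in both. By the same margin, 15 of the 21 were above the control range in library 2 and 13 in library 3. Postn, Thbs1 and Fbn2 were below every control in library 3, and Lamb1 in library 2. Myoid genes had medians of -0.08, 1.36 and 0.64, with Acta2, smooth muscle actin, at 3.32, 2.81 and 3.67 CPM in the control libraries and 1.002, 42.2 and 11.4 CPM in the Tex15-/- libraries. Endothelial genes had 0.01, 1.45 and 0.36. Kdr, a VEGF receptor, was at 3.32, 2.21 and 2.02 CPM in the controls against 1.002, 41.97 and 6.66 CPM in the Tex15-/- libraries. Of the 10 tested, 9 were above the control range in library 2 and 2 in library 3, by the margin set earlier. Pecam1 was at 19.91, 12.83 and 14.66 CPM in the controls against 10.62, 35.97 and 10.66 CPM in the Tex15-/- libraries. Cdh5 was at 19.91, 23.06 and 22.54 CPM in controls and 16.03, 88.67 and 16.75 CPM in Tex15-/- gonocytes. Both were below every control in libraries 1 and 3. Macrophage genes had -0.13, 1.55 and 2.03, with library 3 highest. Csf1r, the receptor for their growth factor, was at 6.08, 6.22 and 4.398 CPM in controls and 5.01, 16.9 and 20.2 CPM in Tex15-/- gonocytes, and Cx3cr1, a chemokine receptor, at 1.84, 2.81 and 0.916 CPM in the control libraries and 0.401, 11.3 and 11.04 CPM in the Tex15-/- libraries.

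The filter on low counts bears on these lists: 71 of the 106 somatic markers passed it, 53 of them with at least 10 counts in all 6 libraries and 1 with under 10 in every control, and the 35 that did not pass include Amh and Insl3. The medians describe the members that passed and are no support for a change with genotype. Of the 71, 12 were above every control in all 3 Tex15-/- libraries and none below, against 6.51% and 6.68% of all genes. None was called by edgeR. DESeq2 called 3 (4.23%, Mrc1 and Mro among them) against 0.233% of all genes, and edgeR with the replicate number as a block 2 (2.82%) against 0.0368%. With no filter on low counts, edgeR called 55 of the 106 markers (51.9%) against 1.66% of all genes. An unadjusted p under 0.05 was found for 43, all higher, against 6.05% of all genes.

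Immediate early genes, which respond within minutes to growth factors or stress, had medians of 0.15, 1.48 and 0.52 in libraries 1, 2 and 3 over 24 tested genes of 29. Egr1 was at 13.6, 9.62 and 8.25 CPM in the controls against 11.6, 106 and 26.3 CPM in the Tex15-/- libraries, Jun at 7.19, 10.03 and 11.5 CPM in controls and 9.62, 79.6 and 23.8 CPM in Tex15-/- gonocytes and Dusp6, a phosphatase that limits ERK signalling, at 2.21, 0.401 and 0.367 CPM in the control libraries and 1.403, 17.99 and 6.85 CPM in the Tex15-/- libraries. Library 2 was above all others in each. Of the 24, 11 were above the control range in library 2 alone, 6 in libraries 2 and 3 alone, and none in all 3, against 7.39%, 3.09% and 0.423% of all genes. By the ranges alone, without the 0.5 log2 margin, 3 (12.5%) were above every control and none below.

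Replication-dependent histone genes had medians of -0.08, 1.30 and 0.55 over 37 tested of 67. Hist1h1a, a linker histone, was at 7.74, 5.82 and 8.797 CPM in the controls against 10.6, 63.6 and 21.5 CPM in the Tex15-/- libraries, and Hist1h4j, a histone H4 gene, at 2.397, 2.01 and 1.1 CPM in controls and 5.01, 8.54 and 6.85 CPM in Tex15-/- gonocytes. Both were above every control in all 3 Tex15-/- libraries and highest in library 2. Of the 37, 6 (16.2%) were above every control and none below. Cell cycle genes (49 tested) had medians of -0.02, 0.45 and 0.10, with 5 (10.2%) above every control and 2 (4.08%) below. Mki67, the proliferation marker, was at 39.3, 31.9 and 37.8 CPM in the control libraries and 32.7, 242 and 85.1 CPM in the Tex15-/- libraries, so that library 1 was within the controls and library 2 far above them. Cdkn2c, an inhibitor of CDK4 and CDK6, was at 2.77, 1.404 and 1.47 CPM in the controls against 3.61, 8.54 and 5.52 CPM in the Tex15-/- libraries, and E2f4, a repressor of cell cycle genes, at 10.5, 13.03 and 10.1 CPM in controls and 18.04, 19.08 and 16.9 CPM in Tex15-/- gonocytes. E2f4 was even across the Tex15-/- libraries and did not overlap the controls, with a log2 fold change of 0.69 (SE 0.221, adjusted p = 0.4603 in edgeR). Egr1, Jun and Mki67 were highest in the library with the most somatic marker RNA. With the summed somatic marker level as a covariate, their log2 fold changes went from 2.19 to -0.01501 for Egr1, from 1.98 to -0.0187 for Jun and from 1.72 to -0.11 for Mki67. The log2 fold change of E2f4 was 0.63 in that fit. As that level stood out only in Tex15-/- libraries 2 and 3, the fit cannot tell its part from that of genotype.

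The germ line lists showed medians close to 0. For the 28 tested gonocyte identity genes the medians were -0.04, -0.07 and 0.00. Dazl, an RNA-binding protein of germ cells, was at 292, 276 and 255 CPM in the control libraries and 238, 204 and 236 CPM in the Tex15-/- libraries, every Tex15-/- library below every control. Its log2 fold change was -0.28 (SE 0.1004, adjusted p = 0.471 in edgeR). Nanos3 was at 4.24, 3.01 and 3.48 CPM in the controls against 2.004, 2.18 and 1.71 CPM in the Tex15-/- libraries and did not overlap either, while Lin28a, the repressor of let-7, was at 65.6, 49.5 and 67.1 CPM in controls and 54.7, 39.1 and 49.9 CPM in Tex15-/- gonocytes and overlapped. Of the 28, 2 were below every control in all 3 Tex15-/- libraries and none above.

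The piRNA pathway genes (30 of 31 tested) had medians of -0.02, -0.12 and 0.02, with 1 gene above every control and 4 below. Tdrd12, a Tudor-domain helicase of secondary piRNA production, was at 68.4, 63.8 and 57.5 CPM in the control libraries and 48.5, 28.2 and 33.1 CPM in the Tex15-/- libraries. It was lower in every Tex15-/- library, least so in library 1, with a log2 fold change of -0.79 (SE 0.1903, adjusted p = 0.4603 in edgeR), and of -0.45 with the somatic marker level as a covariate and -0.38 with library 1 alone. Pnldc1, which trims the 3′ ends of piRNAs, was at 42.4, 41.1 and 40.5 CPM in the controls against 35.3, 31.3 and 33.3 CPM in the Tex15-/- libraries, and Pld6, the mitochondrial endonuclease of primary processing, at 15.9, 11.4 and 17.2 CPM in controls and 9.62, 11.3 and 10.3 CPM in Tex15-/- gonocytes. Both lay below the controls in all 3 libraries. Neither was called.

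Writers and erasers of DNA methylation (24 of 26 tested) had medians of 0.04, 0.22 and 0.04, with 4 genes above every control and 1 below. Tet2, an oxidase of methylcytosine, was at 55.5, 67.2 and 65.4 CPM in the control libraries and 83.4, 78.7 and 76.1 CPM in the Tex15-/- libraries, and Hells, a remodeller needed for methylation, at 175, 209 and 193 CPM in the controls against 158, 151 and 169 CPM in the Tex15-/- libraries. The groups did not overlap in either gene, and differed by 0.34 (SE 0.121) for Tet2 and -0.27 (SE 0.103) for Hells on the log2 scale. Zfp57, which keeps methylation at imprints, was at 1.84, 3.01 and 2.75 CPM in controls and 3.21, 15.4 and 5.14 CPM in Tex15-/- gonocytes, high in library 2. Dnmt3l (values above) had overlapping groups.

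Genes of H3K9 methylation and the HUSH complex (30 tested) had medians of 0.00, 0.04 and 0.02, with 2 above every control and 2 below. Trim28, the corepressor KAP1, was at 283, 223 and 262 CPM in the control libraries and 311, 302 and 316 CPM in the Tex15-/- libraries, above every control in all 3. Atrx, a remodeller of heterochromatin, was at 277, 272 and 305 CPM in the controls against 252, 183 and 187 CPM in the Tex15-/- libraries, and Atf7ip2, a partner of SETDB1 in germ cells, at 19.4, 23.5 and 18.9 CPM in controls and 18.2, 9.27 and 8.94 CPM in Tex15-/- gonocytes. Both had no overlap and were lowest in libraries 2 and 3. Restriction factors of retrotransposons (27 of 28 tested) had medians of 0.06, 0.16 and 0.00. Trim5 was at 2.95, 3.41 and 4.95 CPM in the control libraries and 11.02, 6.18 and 7.42 CPM in the Tex15-/- libraries, and Tex19.2, a germ cell protein, at 25.99, 24.5 and 28.4 CPM in the controls against 20.6, 21.6 and 19.98 CPM in the Tex15-/- libraries. The first lay above and the second below the controls, and neither was called.

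Interferon and RNA-sensing genes (29 of 37 tested) had medians of 0.04, 0.06 and 0.09, with 3 above every control and 5 below. Summed over the 37 genes, the level was 221.6, 231.4 and 226.5 CPM in controls and 208.6, 204.8 and 219.2 CPM in Tex15-/- gonocytes. Every Tex15-/- sum was below every control, and this difference was not tested. Ddx58, which encodes the RNA sensor RIG-I, was at 29.3, 30.9 and 35.6 CPM in controls and 21.6, 16.53 and 24.4 CPM in Tex15-/- gonocytes. Mx1, an antiviral GTPase, was at 11.1, 9.22 and 10.6 CPM in the control libraries and 9.22, 3.27 and 6.66 CPM in the Tex15-/- libraries, and Stat2, a factor of the type I interferon response, at 20.6, 21.1 and 16.7 CPM in the controls against 16.03, 12.9 and 15.4 CPM in the Tex15-/- libraries. The Tex15-/- libraries of Ddx58 and Stat2 were below all controls, and in Mx1 library 1 lay at the level of the lowest control. None of the 29 was called by edgeR or DESeq2, and 0 were higher and 1 lower at an unadjusted p under 0.05 in edgeR.

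Meiosis genes (38 of 39 tested) had medians of 0.02, -0.33 and -0.13, with 4 above every control and 3 below. Sycp1, of the transverse filaments of the synaptonemal complex, was at 199, 214 and 233 CPM in controls and 189, 60.1 and 78.6 CPM in Tex15-/- gonocytes. Sycp3, of its lateral element, was at 21.2, 31.3 and 27.5 CPM in the control libraries and 19.24, 14.5 and 17.7 CPM in the Tex15-/- libraries. Sycp1 was near the controls in library 1 and low in libraries 2 and 3. Sycp1 was among the genes called without library 1, while with all libraries its log2 fold change was -0.98 (SE 0.326, adjusted p = 0.4603 in edgeR). It was -1.62 without library 1, -0.32 with the somatic marker level as a covariate and -0.19 with library 1 alone. Mnd1 (values above) was on the other side, with all Tex15-/- libraries above the controls.

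Signalling genes around foetal germ cells (29 of 36 tested) had medians of -0.05, 0.22 and 0.16. Aldh1a1, a retinaldehyde dehydrogenase, was at 2.21, 5.01 and 5.498 CPM in the controls against 3.41, 87.2 and 47.6 CPM in the Tex15-/- libraries, and Kitl, the KIT ligand made by somatic cells, at 1.47, 4.81 and 2.75 CPM in controls and 1.603, 20.5 and 11.2 CPM in Tex15-/- gonocytes. Library 1 was within the control range in both, and libraries 2 and 3 above it. Imprinted genes (36 of 43 tested) had medians of 0.05, 0.42 and 0.01, with 0 above every control and 2 below, against 6.51% and 6.68% of all genes. Of the 36, 11 (30.6%) were above the control range in library 2 alone, against 7.39% of all genes. Mest, expressed in mesoderm, was at 7.74, 8.62 and 11.5 CPM in the control libraries and 7.82, 92.5 and 22.3 CPM in the Tex15-/- libraries, and Dcn, a matrix proteoglycan also on the interstitial list, at 1.84, 1.404 and 5.498 CPM in the controls against 2.204, 59.2 and 8.18 CPM in the Tex15-/- libraries. Usp29, a paternally expressed protease gene, was at 5.899, 11.4 and 7.51 CPM in controls and 4.41, 2.73 and 2.85 CPM in Tex15-/- gonocytes, below every control in all 3 Tex15-/- libraries.

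Lists of the general cell machinery had small medians that differed between the Tex15-/- libraries. Cytosolic ribosomal protein genes (81 tested) had medians of -0.20, 0.14 and -0.01, mitochondrial ribosomal protein genes (76) -0.12, 0.15 and 0.05, and nuclear genes of the respiratory chain (79) -0.19, 0.26 and 0.07. In each list, library 1 was below 0 and library 2 above. Members above and below every control numbered 2 and 3, 3 and 7 and 7 and 5 in these lists, in that order. Rpsa, a ribosomal protein gene, was at 2540.1, 2538 and 2539 CPM in the control libraries and 2601, 3270.2 and 2942 CPM in the Tex15-/- libraries. Rpl22l1, a paralog of Rpl22, was at 52.5, 59.96 and 55.3 CPM in the controls against 43.9, 49.97 and 36.7 CPM in the Tex15-/- libraries, lower in all 3 Tex15-/- libraries. Ndufb10, of complex I, was at 50.5, 54.5 and 55.2 CPM in controls and 57.1, 85.8 and 65.6 CPM in Tex15-/- gonocytes. The 10 mitochondrially encoded genes tested had medians of -0.17, -0.55 and 0.23, an order unlike that of the nuclear genes. Rpsa and Ndufb10 lay above every control, and Rpl22l1 and the mitochondrial genes mt-Co2 and mt-Nd5 below, and none of these was called. Of the mitochondrial genes, mt-Co2 was at 14.2, 17.8 and 17.8 CPM in the control libraries and 12.2, 6.54 and 12.9 CPM in the Tex15-/- libraries and mt-Nd5 at 1616, 1535 and 1876 CPM in the controls against 1521, 1159.5 and 1485 CPM in the Tex15-/- libraries.

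Medians in libraries 1, 2 and 3 were -0.07, 0.13 and 0.07 for ribosome biogenesis and RNA polymerase I genes (52 tested), -0.11, 0.22 and 0.09 for translation factors (43), -0.07, 0.18 and 0.11 for splicing genes (44) and -0.09, 0.18 and 0.07 for the proteasome (31). Polr1a had the smallest p in the first list, and Tcof1, a nucleolar factor of rRNA transcription, was also even, with 70.98, 67.98 and 73.3 CPM in controls and 81.8, 81.4 and 82.2 CPM in Tex15-/- gonocytes. Of the splicing genes, 6 (13.6%) were above every control and none below, against 6.51% and 6.68% of all genes. Snrpd3, a core Sm protein, was at 15.3, 15.2 and 18.3 CPM in the control libraries and 22.8, 34.2 and 22.5 CPM in the Tex15-/- libraries. Medians were -0.03, 0.07 and 0.14 for chaperones (35), 0.00, 0.38 and 0.21 for glycolysis (24), -0.05, 0.35 and 0.13 for cholesterol synthesis (26) and 0.03, 0.06 and 0.03 for transfer RNA synthetases (34). Mvd, of the mevalonate pathway, was at 7.93, 8.82 and 10.3 CPM in the controls against 16.6, 12.9 and 12.6 CPM in the Tex15-/- libraries, above the controls in all 3 with library 1 highest. Sars2 and Hars2, mitochondrial synthetases for serine and histidine, were at 28.02, 25.7 and 29.9 CPM in controls and 40.5, 42.3 and 57.1 CPM in Tex15-/- gonocytes for Sars2 and 11.1, 13.6 and 13.4 CPM in the control libraries and 18.2, 17.4 and 17.3 CPM in the Tex15-/- libraries for Hars2. Neither pair of groups overlapped, and the log2 fold changes were 0.74 (SE 0.169) for Sars2 and 0.48 (SE 0.212) for Hars2.

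Polycomb and Trithorax genes (42 tested) had medians of -0.01, -0.05 and 0.00 and chromatin remodellers (43) 0.01, 0.17 and -0.01. The former had 4 (9.52%) above every control and 7 (16.7%) below, and the latter 6 (13.95%) above every control and 3 (6.98%) below. Kmt2c, an H3K4 methyltransferase, was at 447, 469 and 472 CPM in the controls against 439, 255 and 322 CPM in the Tex15-/- libraries, low in libraries 2 and 3. Arid1a, a BAF subunit, was at 61.8, 58.4 and 64.9 CPM in controls and 72.3, 84.5 and 86.6 CPM in Tex15-/- gonocytes, and Chd3, a NuRD helicase, at 181, 169 and 167 CPM in the control libraries and 199.6, 273 and 202 CPM in the Tex15-/- libraries, both above every control. Genes of p53, DNA damage and apoptosis (42 of 46 tested) had medians of -0.08, -0.14 and 0.00, with 2 (4.76%) above every control and 9 (21.4%) below, against 6.51% and 6.68% of all genes. Bcl2, an inhibitor of apoptosis, was at 1.84, 0 and 1.83 CPM in the controls against 2.61, 10.5 and 4.95 CPM in the Tex15-/- libraries, above every control, and H2afx, also above, is given earlier. Brca2, of homologous recombination, was at 199, 228 and 213 CPM in controls and 205, 147 and 147 CPM in Tex15-/- gonocytes, low in libraries 2 and 3. Its library 1 lay within the controls, so it is not among the 9 below. Summed over the 46 genes, the level was 3631, 3646 and 3573 CPM in controls and 3474, 3449 and 3516 CPM in Tex15-/- gonocytes. Every Tex15-/- sum was below every control, and this difference was not tested.

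The larger families had medians near 0 as well. The 350 tested Zfp zinc finger genes had 0.00, -0.08 and -0.04, the 261 solute carriers 0.06, -0.23 and 0.01, the 67 Ras-family GTPases -0.02, 0.29 and 0.15 and the 119 RING-class ubiquitin ligases 0.02, 0.00 and 0.05. Members above and below every control numbered 17 and 22 for Zfp genes, 11 and 16 for solute carriers and 9 (7.56%) and 14 (11.8%) for the ubiquitin ligases. Zfp770 was even in the Tex15-/- libraries, at 30.6, 34.3 and 37.8 CPM in the control libraries and 22.04, 23.1 and 24.9 CPM in the Tex15-/- libraries, all below the controls. Of the Ras-family genes, 12 (17.9%) were above every control and 2 (2.98%) below, against 6.51% and 6.68% of all genes. Rap2a, a member, was at 29.9, 21.5 and 24.9 CPM in the controls against 32.9, 43.97 and 39.96 CPM in the Tex15-/- libraries. The 8 Y chromosome genes tested had medians of 0.20, -0.46 and -0.06, and none had groups that did not overlap.

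Olfactory receptor genes, of which 27 of 1135 passed the filter, had medians of 0.00, -1.39 and -0.48, so that libraries 2 and 3 were low and library 1 was not. These medians describe the members that passed and are no support for a change with genotype. Of the 27, 5 (18.5%) were below every control and none above. Olfr1393 was at 12.7, 19.9 and 13.9 CPM in controls and 10.2, 2.18 and 5.52 CPM in Tex15-/- gonocytes and Olfr149 at 10.9, 10.8 and 7.33 CPM in the control libraries and 6.41, 1.45 and 3.04 CPM in the Tex15-/- libraries. In vomeronasal receptor genes (15 of 322 tested) the medians were 0.51, -0.56 and 0.62. Vmn1r9 was at 3.503, 6.42 and 5.31 CPM in the controls against 12.02, 7.99 and 18.8 CPM in the Tex15-/- libraries, above every control in all 3 Tex15-/- libraries. These receptors are known from sensory neurons, and read pairs that aligned to several near copies of a family were left out of the counts.

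By biotype, protein-coding genes (14033 tested) had medians of 0.01, 0.06 and 0.04 in Tex15-/- libraries 1, 2 and 3 on the log2 ratio scale, while TEC, sense intronic, antisense and lincRNA genes were low in libraries 2 and 3 and not in library 1. Genes of the class TEC (loci whose transcripts still await experiments; 531 tested) had 0.13, -1.35 and -0.82, sense intronic RNAs (64) 0.04, -1.56 and -1.06, antisense RNAs (274) 0.11, -1.05 and -0.50 and lincRNAs (489) 0.11, -0.62 and -0.24. Processed pseudogenes (383) had -0.02, -0.29 and -0.15. The snoRNA genes (54) had -0.26, -0.86 and -0.24, lowest in library 2. Of the TEC genes, 191 (36.0%) were below the control range in libraries 2 and 3 and not in library 1, and of the sense intronic genes 28 (43.8%), against 4.55% of all genes. The same libraries had the lowest number of read pairs outside genes (0.287 and 0.432 per gene count) and the most somatic marker RNA, and the part of either in these classes was not tested. The class medians describe only genes that passed the filter on low counts. Of the 10 biotypes with at least 50 tested genes, 6 had a median log2 fold change beyond 0.25 in size, and 3 without library 2.

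**Figure D5:**
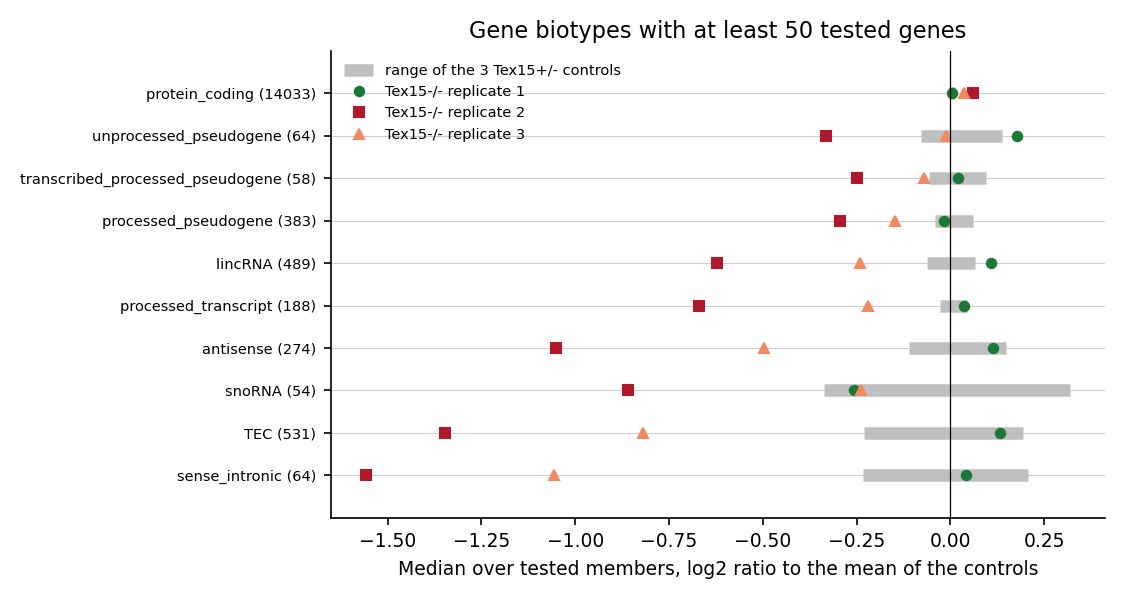
Median log2 ratio to the control mean of each biotype with at least 50 tested genes, 1 point per Tex15-/- library, with a grey bar for the range of the 3 controls. Sense intronic and TEC genes lie lowest in library 2 (-1.56 and -1.35) and next in library 3 (-1.06 and -0.82), and near 0 in library 1 (0.04 and 0.13), while protein-coding genes lie near 0 in all 3.

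Single non-coding genes could be low in all 3 Tex15-/- libraries. The TEC gene 2900078I11Rik was at 2.77, 3.81 and 3.12 CPM in controls and 0.601, 0.727 and 1.14 CPM in Tex15-/- gonocytes, the antisense gene 4930422M22Rik at 4.42, 2.81 and 7.33 CPM in the control libraries and 1.603, 0.908 and 1.14 CPM in the Tex15-/- libraries and the sense intronic gene Gm43331 at 2.21, 3.21 and 3.12 CPM in the controls against 0.601, 0.727 and 1.14 CPM in the Tex15-/- libraries. In each, no Tex15-/- library reached the lowest control, and the values rest on few counts. These genes passed the filter on low counts through the controls, where they were higher, which partly fixes that order. Xist, the RNA that coats an inactive X chromosome, was at 9.96, 11.8 and 9.71 CPM in controls and 6.61, 3.997 and 3.996 CPM in Tex15-/- gonocytes, and Gm15389, also a lincRNA, lay on the other side at 12.4, 18.4 and 13.4 CPM in the control libraries and 23.4, 28.5 and 22.1 CPM in the Tex15-/- libraries. Counting by strand is not stated, so reads of intronic and antisense genes and of the genes they overlap cannot be told apart.

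As shares of all gene counts, the groups overlapped in each of the 19 classes compared. Protein-coding genes took 71.6, 72.2 and 70.8% in the control libraries and 70.4, 73.7 and 71.5% in the Tex15-/- libraries. The class miRNA took 14, 12.2 and 12.6% in the control libraries and 14.7, 16.9 and 13.2% in the Tex15-/- libraries, nearly all of it from the single gene Gm23935, which held 99.03% of the class in the library where it was lowest. Mitochondrial rRNA took 8.9, 10.4 and 11.6% in the control libraries and 8.999, 5.71 and 9.81% in the Tex15-/- libraries, lowest in library 2. The smallest exact permutation p over these classes was 0.2 (two-sided, 3 libraries against 3, for which 0.1 is the smallest possible), with an adjusted p of 0.38.

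Apart from Tex15 itself, no tested gene within 10 Mb of it was called by edgeR or DESeq2 with all libraries. The 84 tested genes there had a median log2 fold change of -0.02, with 7 above every control and 5 below, against 0.03 for the other 762 genes of chromosome 8; of all genes, 6.51% and 6.68% lay above and below every control. Of the 84, 10 were higher at an unadjusted p under 0.05 and none lower, against 48 and 20 of the 762 and 987 and 514 of all 16311 genes. Across the autosomes and X, chromosome medians ran from -0.05 to 0.05.

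Actb, the cytoplasmic actin gene often used for scaling, was at 679, 592 and 638 CPM in the controls against 615, 1015 and 799 CPM in the Tex15-/- libraries, with library 2 highest, and was not called (adjusted p = 0.535 in edgeR).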

How the data were processed

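Read pairs of 75 bp came from a SMARTer stranded low-input kit after removal of rRNA. Per the labels and the methods, the authors aligned them with HISAT2 to GRCm38, trimming 3 bases at the 5′ end and leaving out discordant pairs, and deposited raw counts for each Ensembl gene, made with htseq-count (HTSeq 0.11.1) and not normalised. The strand setting is not given in the sources used here. Summary entries (no gene, ambiguous, unaligned, several places) were dropped, and held 61.3% to 67.3% of each table. Of 54838 identifiers, 54723 (99.79%) were matched to the GENCODE annotation of GRCm38.

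In R 4.3.3, edgeR 4.0.16 was run with TMM factors, filterByExpr (minimum count 10, total 15), the quasi-likelihood test on genotype alone and Benjamini-Hochberg adjustment over 16311 genes, with a call at an adjusted p under 0.05. The methods give no threshold for genes. Log2 CPM used a prior count of 2, and log2 ratios are to the mean of the controls. Biotype shares were compared by exact permutation tests. Alternatives were DESeq2 1.42.0, edgeR's newer quasi-likelihood estimate, other filters and scaling, the replicate number as a block, the summed somatic marker level as a covariate, and libraries left out. Genes named were taken from those chosen by rule: Tex15 and Actb, called genes, the 20 smallest p among genes whose groups did not overlap, the 3 smallest p in each list, the 2 smallest in each biotype and the defining markers. The 43 lists, the members and the tests were chosen with earlier results of these data known. Shared changes with a library left out were added after seeing the data. Repeat and small RNA tables were not used here.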

Additional observations from a re-analysis of the deposited data

How the results depend on the processing

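The 3 calls were a small number that other settings moved. DESeq2 gave 38 calls (33 higher, 5 lower), no filter on low counts 706 of 42446 genes (614 higher, 92 lower), the somatic marker level as a covariate 11 (7 higher, 4 lower), Tex15-/- library 1 alone against the controls 29 (18 higher, 11 lower), and an adjusted p under 0.01 gave 0 calls in edgeR, where DESeq2 gave 13 and 1501 genes had an unadjusted p under 0.05. The newer quasi-likelihood estimate gave 4, a minimum of 10 counts in every library 3, and total counts without TMM factors or upper quartile factors 2, both lower, without Rspry1. Leaving out 1 library in turn gave 0 to 1284 calls, with 0 without control library 2, control library 3 or Tex15-/- library 3 (912, 861 and 1159 genes at an unadjusted p under 0.05), 1 without control library 1 and 1284 without Tex15-/- library 1. For Tex15 it gave log2 fold changes of -2.74 to -2.17, for genes whose groups did not overlap 3275 to 6583, for shared changes 236 to 1400, for lists with a median beyond 0.5 from 5 to 10 and for biotypes beyond 0.25 from 3 to 8. The highest numbers of non-overlapping genes and of shared changes came without Tex15-/- library 1, and the lowest list and biotype counts without Tex15-/- library 2. With a library left out, fewer have to agree for a gene to be counted. Shared changes numbered 18 (7 higher, 11 lower) at 1 log2 beyond the control range, and 51 (29 higher, 22 lower) with at least 10 counts in every library. The cause of the other differences was not tested.

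Same-numbered libraries had correlations of -0.143, -0.0434 and -0.0075 in their deviations from the group means, and the other pairs -0.0862 to 0.1265. With 3 libraries per genotype, these values cannot tell whether the replicate numbers pair the libraries. With the replicate block, 6 genes were called (4 higher, 2 lower): Tex15 and Gm10800 lower, and Cyp17a1, Hsd3b1, Cdh11 and Gja1 higher, the first 2 of these being Leydig cell markers. Rspry1 was lost, at an adjusted p of 0.135 in edgeR.

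Of the named genes, those that took the opposite sign did so in 2 settings. With the somatic marker level as a covariate, log2 fold changes were -0.51 for Acta2, -0.037 for Actb, -0.50 for Dcn, -0.0595 for Dnmt3l, -0.015 for Egr1, -0.0187 for Jun, -0.91 for Kdr, -0.28 for Mest and -0.11 for Mki67. With Tex15-/- library 1 alone they were -1.68 for Acta2, -0.048 for Actb, -0.31 for Aldh1a1, -0.15 for Csf1r, -2.14 for Cx3cr1, -0.20 for Cyp11a1, -0.40 for Dcn, -0.0864 for Dnmt3l, -1.31 for Kdr, -0.89 for Kitl, -0.25 for Mest, -0.15 for Mki67, -1.10 for Nr2f2, -1.79 for Ptgds and -0.16 for Sox9. None of these genes was called with all libraries. Acta2, Dcn and Kdr are themselves part of the somatic marker level used as a covariate. Genes of low level, such as Gm21738, rest on few counts at a depth of 4893265 to 5697020 gene counts per library, and intervals from counting would leave out the spread between libraries.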
